A study of Mus musculus with 36 samples.

Results

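The nuclear-encoded subunits of the mitochondrial respiratory chain and ATP synthase were followed by bulk RNA-seq in the BMP4-induced primed to naïve transition (BiPNT), in which mouse epiblast stem cells (EpiSCs) are taken towards naïve pluripotency. Members were chosen by name: protein-coding genes whose symbol begins with Nduf followed by a, b, c, s or v and a number, Sdha to Sdhd, Uqcr, Cox4 to Cox8, or Atp5 followed by a letter from a to o. Of 96 matching symbols, 84 were protein-coding without a pseudogene suffix, and 83 were listed in all 11 libraries, out of 50600 genes listed for the sorted Day 3 cells and 29267 listed for the other libraries. They comprised 37 subunits of complex I, 4 of complex II, 8 of complex III, 18 of complex IV and 16 of ATP synthase (complex V). The 13 protein genes of the mitochondrial genome, analysed in the sorted Day 3 cells, served as reference.

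The libraries came from 3 experiments. Day 3 cells of BiPNT had been sorted on the surface receptor c-Kit into c-Kit+ cells (2 libraries) and c-Kit- cells (2 libraries), both after culture in Stage 1 medium, an iCD1-based medium with vitamin C, bFGF, LiCl, LIF, CHIR99021, BMP4, the EZH2 inhibitor EPZ6438 and a DOT1L inhibitor (EPZ5676 or SGC0946). EpiSCs kept in N2B27 with Activin A, bFGF and XAV939 (3 libraries) were compared with Day 6 BV+SC+ cells (2 libraries). The latter carry the reporters Blimp1-mVenus and Stella-ECFP, are called primordial germ cell-like cells in the labels, and were sorted for both reporters after 3 days of iCD1 with BMP4, EPZ5676 and EPZ6438 and a further culture in 2i with vitamin C. The labels name a different medium for each BV+SC+ library, 2iJi for replicate 1 and GK15 for replicate 2. The libraries D3(+SGC) and D3(-SGC), 1 each, were Day 3 cells with and without the DOT1L inhibitor SGC0946, as their titles give it. BV+SC+ cells had met BMP4, a DOT1L and an EZH2 inhibitor and other media that EpiSCs had not, and were sorted for reporters. Their libraries were also deeper. None of this can be told apart from the change of cell state. No label says that replicates came from separate cultures, so p-values measure the spread between these libraries, which may be technical. Between the 2 BV+SC+ libraries the spread also holds any effect of the medium, and these cannot be told apart.

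Complex I takes electrons from NADH, and complex II, which is also an enzyme of the citric acid cycle, takes them from succinate. Complex III passes them to cytochrome c, complex IV hands them to oxygen, and ATP synthase uses the proton gradient that results. Most subunits are encoded in the nucleus and join a small set made inside the mitochondrion from its own genome. Several complex IV subunits exist as a widely expressed and a tissue-restricted isoform, among them Cox4i2 (lung, induced by low oxygen), Cox6b2 (testis) and Cox7a1 (heart and skeletal muscle). Primed pluripotent cells are known to rely on glycolysis more than naïve cells do.

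Depth was 1726038 to 1841442 expected counts per library in the sorted Day 3 cells, 2444211 to 3070115 in EpiSCs, 14778809 and 18099059 in BV+SC+ cells, and 4577685 and 4776143 in the SGC0946 pair. Kit, the gene of the sorted receptor, was at 4.81 and 3.24 TPM (a transcript level corrected for length and depth) in c-Kit- and 99.6 and 96.02 TPM in c-Kit+ cells. Summed TPM of 10 germ cell markers was 1224 and 1115 in c-Kit+ against 331 and 323 in c-Kit- cells. Prdm14, Nanos3, Ddx4 and Dazl were at 0 in both c-Kit- libraries. Dazl was also at 0 in both c-Kit+ libraries, and Ddx4 in c-Kit+ replicate 1. The same sum was 2617 and 2941 in BV+SC+ cells against 33.8 to 36.7 in EpiSCs. The sum of 11 trophoblast markers was 7173 and 6534 in c-Kit- against 1709 and 1451 in c-Kit+ cells, with none at 0, 7 of 10 tested lower in c-Kit+ cells and Cdx2 higher, and it was 33.3 to 48.4 in EpiSCs against 214 and 69.9 in BV+SC+ cells. Primed epiblast markers summed to 1453 to 1575 TPM in EpiSCs and 88.0 and 161 TPM in BV+SC+ cells. In c-Kit+ cells they summed to 260 and 286 TPM, above the 85.4 and 90.6 TPM of c-Kit- cells. The part of these cell types in the differences given here was not tested, and in bulk RNA fewer cells of a type and less RNA per cell cannot be told apart.

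Most of the subunits were detected everywhere: 76 of 83 had TPM above 0 in every library. Atp5b, the catalytic beta subunit of ATP synthase, had the highest TPM of the members in each of the 11 libraries, from 1379 in a c-Kit- library to 7212 in a BV+SC+ library. At the other end, Cox8b was at 0 in all libraries, Cox6a2 was above 0 in 1 EpiSC library (4.24 TPM) and Cox8c in 1 BV+SC+ library (0.80 TPM). These are isoforms of muscle or testis.

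Summed over the members of a complex, the levels of c-Kit+ and c-Kit- cells were close on the TPM scale. Complex I summed to 4556 ± 40.8 TPM (SD, n = 2) in c-Kit+ and 4498 ± 349 TPM (n = 2) in c-Kit- cells. Complex IV summed to 4430 ± 97.4 and 4614 ± 68.3 TPM, and complex V to 5989 ± 15.7 and 6047 ± 340 TPM. Complex II, the smallest of these sums, was 522 and 518 TPM in the c-Kit+ libraries and 485 TPM in both c-Kit- libraries. The TPM ratio of c-Kit+ to c-Kit- cells was between 0.94 (complex III) and 1.07 (complex II). On shares of expected counts the ratio was between 0.95 (complex III) and 1.17 (complex II). Complex IV was lower in c-Kit+ cells on TPM, but its shares were 0.150% and 0.148% against 0.144% and 0.143% in c-Kit- cells. The groups overlapped on neither scale, so the direction of complex IV depended on the scale.

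BV+SC+ cells had larger sums than EpiSCs for every complex but complex II, without overlap between the libraries. Complex IV was at 6412 ± 42.0 TPM (SD, n = 3) in EpiSCs and 9138 ± 846 TPM (n = 2) in BV+SC+ cells, complex I at 6842 ± 201 and 8078 ± 772 TPM, and complex III at 3196 ± 47.2 and 3852 ± 335 TPM. Complex II was at 814 ± 38.2 TPM in EpiSCs and 694 ± 79.4 TPM in BV+SC+ cells, again without overlap, but as a share of expected counts it was 0.0641% to 0.0695% in EpiSCs and 0.0761% and 0.0642% in BV+SC+ cells, which overlapped, so its direction depended on the scale. The complex V sum was 1.52 times as high in BV+SC+ cells, and 1.11 times with Atp5b left out. These sums were not tested.

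**Figure D1:**
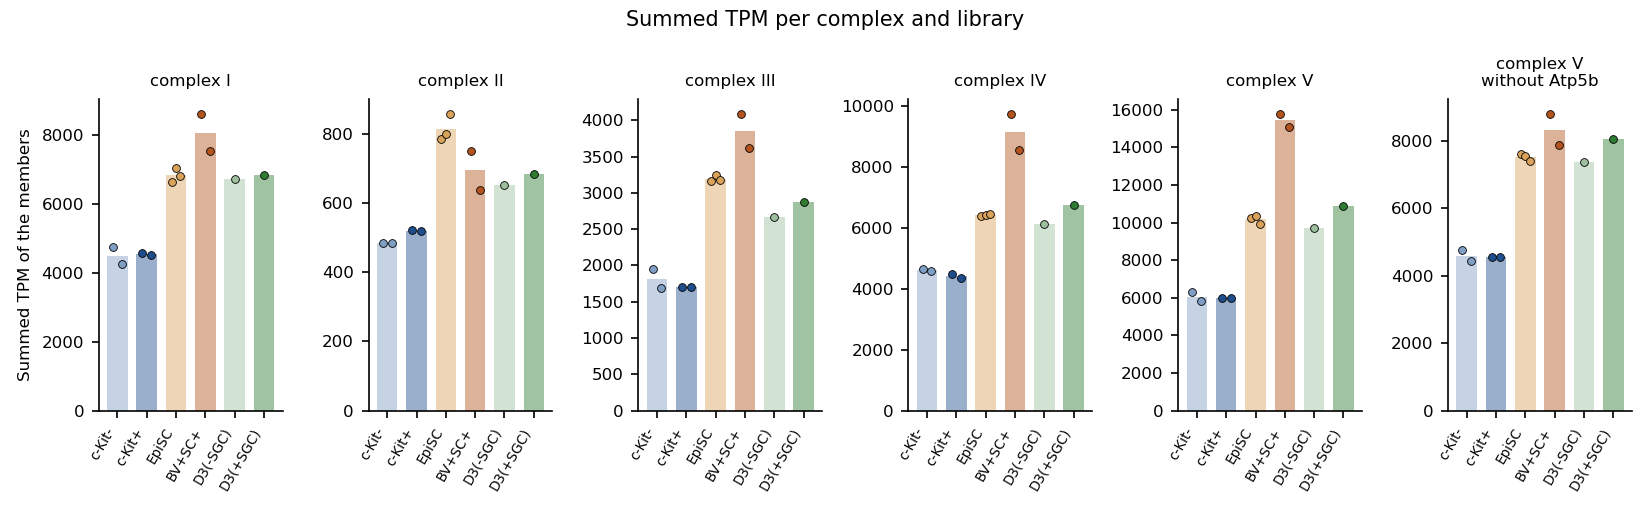
Summed TPM (linear axes from 0) of the members of each complex; points are libraries and bars are group means. The BV+SC+ libraries lie above the EpiSC libraries in complexes I, III, IV and V and below them in complex II (TPM only, since shares of counts overlap there). The c-Kit+ to c-Kit- ratios of TPM are 0.94 to 1.07.

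The first comparison asked how the subunits differ between c-Kit+ cells, the naïve branch of the transition, and c-Kit- cells, its trophoblast-like branch. Most subunits did not pass the test, while the tissue-restricted complex IV isoforms Cox6b2 and Cox4i2 moved in opposite directions and by more than any other member called. Of 77 members tested, 9 were called higher and 2 lower in c-Kit+ cells (adjusted p under 0.05, edgeR quasi-likelihood test, Benjamini-Hochberg adjustment over all genes tested), that is 11.7% and 2.60% of them. Of all 11018 genes tested, 20.2% were called higher and 21.3% lower. The median log2 fold change was 0.09 over the members and 0.03 over all genes. With the study's threshold of an unadjusted p under 0.05 and a fold over 2, 1 member was higher and 2 were lower, beside 10.8% and 13.6% of all genes. Leaving out either c-Kit+ library, which leaves 1 in that group, called fewer members and fewer of all genes in both directions. Leaving out either c-Kit- library called more members lower. The median over the members was 0.08 and 0.11 without c-Kit+ replicates 1 and 2 (0.02 and 0.03 over all genes). Without c-Kit- replicates 1 and 2 it was 0.16 and -0.0036 (0.009 and 0.012 over all genes). DESeq2 called 2 higher and 0 lower, with 4 and 2 at an unadjusted p under 0.05, where edgeR had 17 and 3. Of all genes, DESeq2 called 11.5% higher and 13.5% lower.

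Cox6b2, the testis isoform of a subunit that joins the monomers of complex IV, was at 13.04 and 10.6 TPM in c-Kit- cells and at 56.7 and 74.01 TPM in c-Kit+ cells. The groups did not overlap, and the log2 fold change was 2.43 ± 0.46 (SE; adjusted p = 0.00252, edgeR). It rested on 6 and 5 expected counts in c-Kit- and 24 and 34 in c-Kit+ cells, and the call was kept under the 13 alternatives that tested it; a filter of at least 10 counts in every library left it and Cox4i2 untested. Its widely expressed counterpart Cox6b1 was at 407 and 365 TPM in c-Kit- and 425 and 401 TPM in c-Kit+ cells, with a log2 fold change of 0.24 ± 0.13 (adjusted p = 0.168). In c-Kit+ cells Cox6b2 thus remained well below Cox6b1 on the TPM scale.

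Cox4i2, the low-oxygen isoform of subunit 4, was at 22.3 and 16.1 TPM in c-Kit- cells and at 1.57 and 1.46 TPM in c-Kit+ cells. The groups did not overlap, and the log2 fold change was -3.37 ± 0.73 (adjusted p = 0.00533) in the edgeR fit. Each c-Kit+ library held 1 expected count, against 24 over both c-Kit- libraries. The ratio of pooled CPM (counts scaled to library size), c-Kit- to c-Kit+, was 11.8 with an exact 95% counting interval from 2.93 to 103, and the call was lost with DESeq2 and when either c-Kit+ library was left out. The common isoform Cox4i1 moved the other way, from 867 and 829 TPM to 1023 and 955 TPM, with a log2 fold change of 0.36 ± 0.10 (adjusted p = 0.0136). Leaving out c-Kit+ replicate 1 ended the call of Cox4i1, as did DESeq2.

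Cox5a was the other complex IV subunit called lower in c-Kit+ cells. It lies on the matrix side of the complex and was at 480.4 and 477 TPM in c-Kit- and 288 and 323 TPM in c-Kit+ cells, with a log2 fold change of -0.49 ± 0.13 (adjusted p = 0.0135), a call lost with DESeq2 and without c-Kit+ replicate 1. Cox7c and Cox7b, small membrane subunits, were called higher. Cox7c went from 311 and 328 to 446 and 403 TPM (log2 fold change 0.57 ± 0.14, adjusted p = 0.00936), a call lost with DESeq2, with a GC offset and without c-Kit+ replicate 1. Cox7b went from 132 and 144 to 170.3 and 177 TPM (0.49 ± 0.15, adjusted p = 0.0247), and its call was lost under 7 of 14 alternatives. The other 7 complex IV members tested were not called, with log2 fold changes between -0.26 (Cox6a1, 0.13 with a GC offset) and 0.25 (Cox7a2l). Cox7a1 had 1 count in c-Kit- and 3 in c-Kit+ cells, and Cox6a2, Cox7b2, Cox8b and Cox8c had 0 in all 4 libraries.

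In complex II, all of whose subunits are nuclear-encoded, Sdha and Sdhd were called higher in c-Kit+ cells and Sdhb and Sdhc were not called. Sdhd, a membrane anchor of the complex, was at 117 and 147 TPM in c-Kit- and 159 and 179 TPM in c-Kit+ cells, with a log2 fold change of 0.50 ± 0.16 (adjusted p = 0.0329). Sdha, the flavoprotein that oxidises succinate, was at 174 and 162 TPM in c-Kit- and 176 and 177 TPM in c-Kit+ cells, with a log2 fold change of 0.30 ± 0.10 (adjusted p = 0.0384) on the count scale. Both calls lay near the threshold: that of Sdhd was lost under 6 of 14 alternatives and that of Sdha under 10 of 14. The log2 fold change was 0.01 ± 0.18 for Sdhb and 0.03 ± 0.19 for Sdhc.

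Complex I had 2 subunits called higher, both accessory. Ndufa7 was at 219 and 206 TPM in c-Kit- and 333 and 355 TPM in c-Kit+ cells (log2 fold change 0.83 ± 0.16, adjusted p = 0.00307), and Ndufa12 at 196 and 189 TPM against 249 and 270.4 TPM (0.59 ± 0.17, adjusted p = 0.0205). The call of Ndufa7 was kept under all 14 alternatives, and that of Ndufa12 was lost with DESeq2 and without either c-Kit+ library. The core subunits Ndufv1, which binds the flavin, and Ndufs1, which carries iron-sulphur clusters, were not called, with log2 fold changes of 0.30 ± 0.16 and -0.23 ± 0.15. The extremes of the complex did not pass the test either. Ndufb3 stood at 0.89 ± 0.32 (adjusted p = 0.0501) and Ndufb4 at -0.88 ± 0.45 (adjusted p = 0.145), and the value of Ndufb4 became -0.04 when the counts of Ndufb4c, a processed pseudogene that shares its sequence, were added. Ndufa4, placed in complex I by its name and known as a complex IV subunit, had 0.34 ± 0.13 (adjusted p = 0.0577), which a GC offset took to -0.01.

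No complex III subunit was called by edgeR in either direction. Over its 8 members, 0 had an unadjusted p under 0.05, and log2 fold changes lay between -0.25 (Uqcrh, the hinge protein) and 0.30 (Uqcr10). Uqcrc1, a core protein, had -0.10 ± 0.12, and Uqcrfs1, the Rieske iron-sulphur protein, had -0.07 ± 0.14. In complex V, Atp5d, of the central stalk, was called higher (432 and 403 TPM in c-Kit- against 468 and 481 TPM in c-Kit+ cells, log2 fold change 0.32 ± 0.11, adjusted p = 0.0367), a call lost under 8 of 14 alternatives. The catalytic head did not pass: Atp5a1 had 0.09 ± 0.07, Atp5b 0.14 ± 0.07 and Atp5c1 0.16 ± 0.12. Atp5e, another small stalk subunit, had the largest value of the complex, 0.57 ± 0.22 (adjusted p = 0.0637).

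The 3 genes for the c-ring of ATP synthase, whose mature proteins are identical, could not be read equally well. Atp5g1 and Atp5g3 had log2 fold changes of 0.25 ± 0.20 and 0.13 ± 0.12. Atp5g2 was listed at 66.2 and 22.2 TPM in c-Kit- and 15.8 and 14.5 TPM in c-Kit+ cells, which gave -1.35 ± 0.57 (adjusted p = 0.0834) on the log2 scale. The processed pseudogene Gm10175 aligned to Atp5g2 over 100% of its length, at an identity of at least 98%. It was listed at 511 and 535 TPM in c-Kit- and 646 and 663 TPM in c-Kit+ cells. With the counts of its copies added, Atp5g2 had a log2 fold change of 0.37 (adjusted p = 0.0209, edgeR), the opposite sign. In all, 18 members shared at least 98% identity over at least 75 bases with 33 other listed genes, and their levels are uncertain to that extent.

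**Figure D2:**
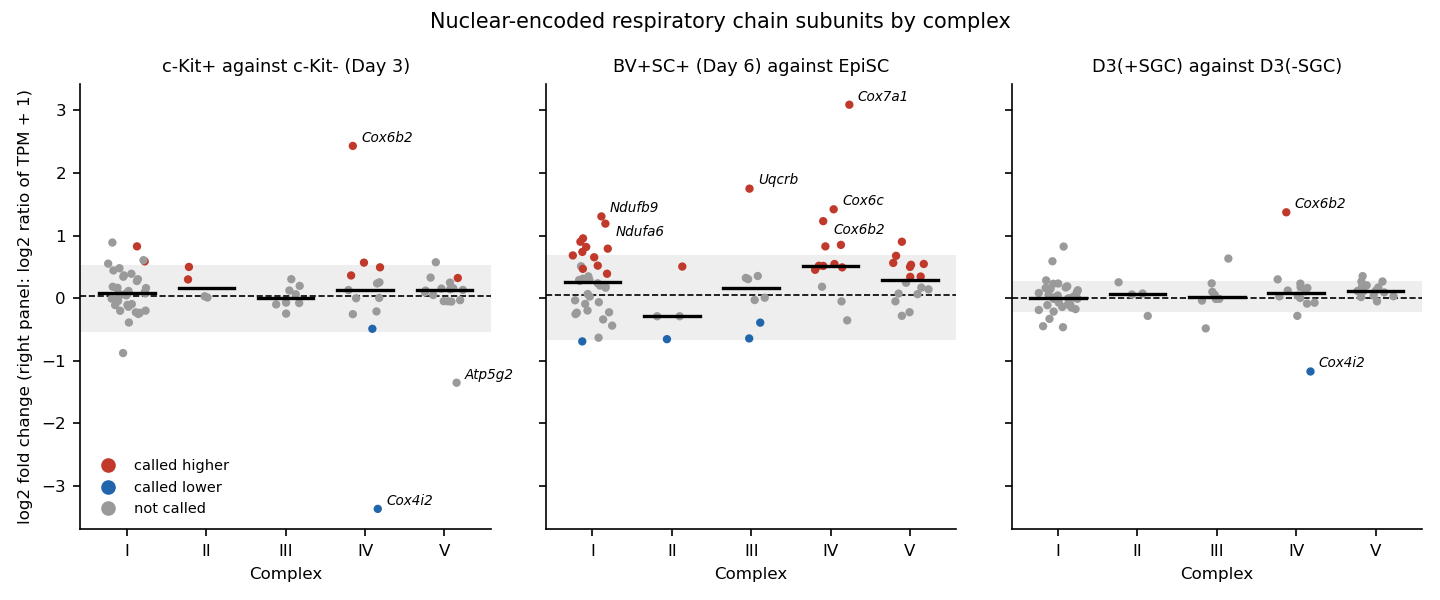
Log2 fold change of each member tested, by complex, in the 3 comparisons (right panel: log2 ratio of TPM + 1, 1 library each); thick bars are medians of the complex, the dashed line and grey band are the median and middle 50% of all genes tested, and colour marks the calls (right panel: past 2-fold, with no test). Cox6b2 is high in all panels (2.43, 1.23 and 1.37), Cox4i2 is low in the left and right panels (-3.37 and -1.17), and 10 of 13 complex IV points in the middle panel are called higher.

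The 13 protein genes of the mitochondrial genome were all above 0 in log2 fold change in c-Kit+ against c-Kit- cells, and 9 of them were called higher. Their median was 0.67, against 0.09 over the nuclear-encoded members, and this difference was not tested. Without c-Kit- replicate 1 the median was 0.39, and without c-Kit- replicate 2 it was 0.92. Summed, they made up 3.63% and 4.04% of the expected counts of the c-Kit+ libraries and 2.02% and 3.01% of those of the c-Kit- libraries, without overlap. The nuclear-encoded members made up 0.875% and 0.859% of the counts in c-Kit+ and 0.851% and 0.796% in c-Kit- cells.

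mt-Nd2, a membrane subunit of complex I, had the largest called change, from 1978 and 2615 TPM to 3688 and 3642 TPM (log2 fold change 0.81 ± 0.12, adjusted p = 5.95e-04). mt-Co1, the catalytic subunit of complex IV, went from 9575 and 13307 to 15065 and 16707 TPM (0.61 ± 0.13, adjusted p = 0.00456), and mt-Atp6, a proton channel subunit of ATP synthase, from 6972 and 8891 to 11032 and 11513 TPM (0.65 ± 0.10, adjusted p = 0.00107). The called genes ran from mt-Atp8 at 0.50 to mt-Nd2 at 0.81. The uncalled ones were mt-Co2, mt-Co3, mt-Nd3 and mt-Cytb. For mt-Co2, c-Kit+ replicate 2 stood apart: the levels were 920.2 and 489.6 TPM in c-Kit- and 489.6 and 2605 TPM in c-Kit+ cells, and the groups overlapped. Its log2 fold change was 1.29, and -0.39 without that library.

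The mitochondrial transcripts are poor in G and C (31.9% to 41.1%), and in these libraries low GC content went with a higher value in c-Kit+ cells. The 460 nuclear genes in the same range of GC content had a median log2 fold change of 0.53, whereas nuclear genes with 50% to 60% GC had -0.12. With a GC offset in the edgeR model, 0 of 13 mitochondrial genes were called higher, and 0 had an unadjusted p under 0.05 in that direction. With it mt-Nd1 stood at -0.19, mt-Nd2 at -0.09, mt-Co1 at -0.03, mt-Nd3 at -0.22, mt-Nd5 at -0.06 and mt-Nd6 at -0.14. mt-Atp8 (-0.49), mt-Atp6 (-0.25), mt-Nd4 (-0.22) and mt-Cytb (-0.25) were then called lower. Without the offset DESeq2 called 6 higher, and edgeR with a replicate block called 12. The direction of the mitochondrial-encoded genes thus depended on the GC offset. The nuclear-encoded members ranged from 36.7% to 60.8% GC, and the offset left their median at 0.09, with 13 called higher and 3 lower.

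**Figure D3:**
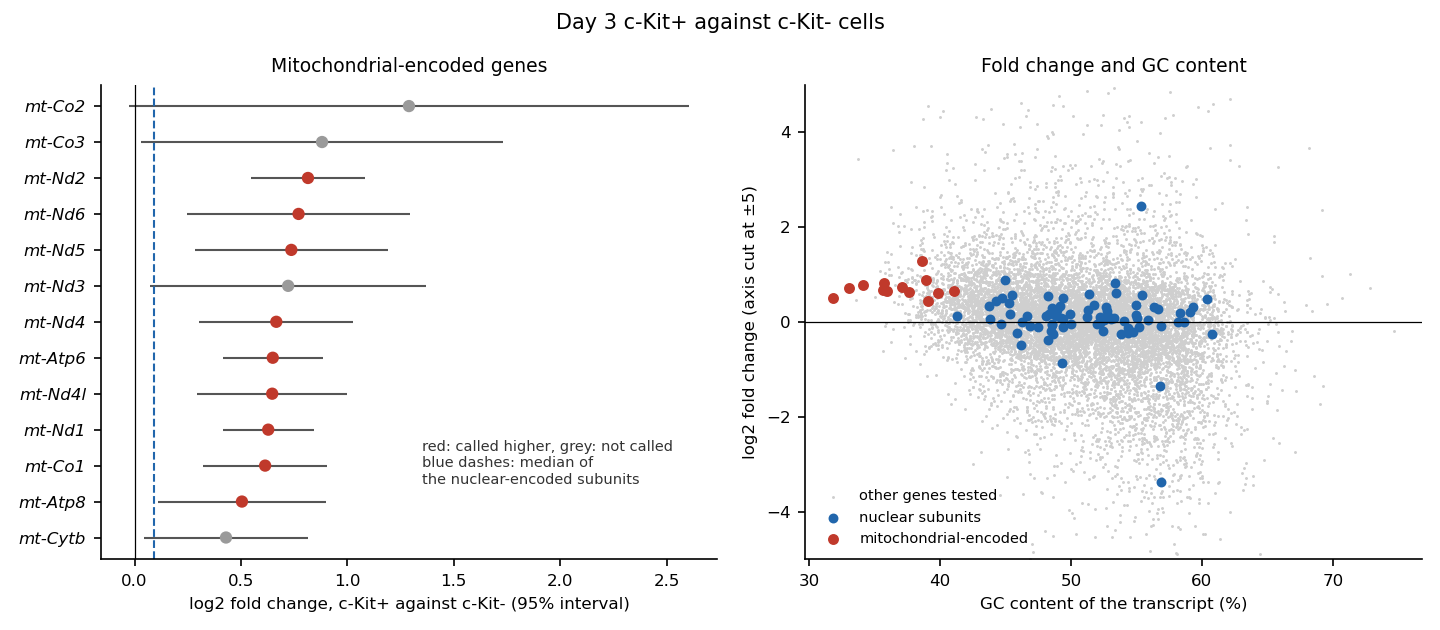
Left, log2 fold change of the mitochondrial-encoded genes in c-Kit+ against c-Kit- cells with 95% intervals derived from the edgeR F statistic. The dashed line marks the median of the nuclear-encoded members. Right, log2 fold change against GC content of the transcript; the mitochondrial-encoded genes lie at 31.9% to 41.1% GC, where the median of other genes was 0.53.

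The second comparison asked how the subunits differ between primed EpiSCs and BV+SC+ cells. A larger share of the members than of all genes was higher in BV+SC+ cells, most of complex IV among them, while complex II did not move one way. Of 77 members tested, 32 were called higher (41.6%) and 4 lower (5.19%), while 29.6% of all 11792 genes tested were called higher and 26.5% lower. The median log2 fold change was 0.30 over the members and 0.05 over all genes. At an unadjusted p under 0.05 with a fold over 2, 6 members were higher and 0 lower, beside 17.2% and 17.8% of all genes, and without the fold limit the edgeR counts at that p were 36 and 8. DESeq2 called 32 and 4. Without BV+SC+ replicate 1, which leaves 1 library in that group, more members and more of all genes were called lower. The median over the members was then 0.23 (0.03 over all genes).

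By complex, the numbers called higher and lower were 12 and 1 of 36 tested in complex I, 1 and 1 of 4 in complex II, 1 and 2 of 8 in complex III, 10 and 0 of 13 in complex IV, and 8 and 0 of 16 in complex V. At an unadjusted p under 0.05 in edgeR, 1 complex IV and 1 complex V member were lower, Cox8a at -0.36 ± 0.14 (adjusted p = 0.0564), which stood at 0.30 with a GC offset, and Atp5g3 at -0.28 ± 0.11 (adjusted p = 0.0533). The medians were 0.26, -0.29, 0.16, 0.52 and 0.29 on the log2 scale for complexes I to V.

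Cox7a1, the heart and muscle isoform of subunit 7a, had the largest change of the members tested. It was at 13.02, 17.9 and 5.09 TPM in EpiSCs and at 106 and 119 TPM in BV+SC+ cells, without overlap. The log2 fold change was 3.09 ± 0.49 (SE; adjusted p = 0.00117, edgeR), and it rested on 3, 4 and 1 expected counts in the EpiSC libraries. The common isoform Cox7a2 was at 287, 265 and 289.6 TPM in EpiSCs and 298 and 226 TPM in BV+SC+ cells, which overlapped (-0.05 ± 0.15, adjusted p = 0.786). Cox7b2, the testis isoform of subunit 7b, had 0 counts in the 3 EpiSC libraries and 7 and 29 in BV+SC+ cells, at least 3.10-fold higher in CPM against a floor of 3 counts over the EpiSC group, and was too low for the test. Cox7b itself was at 172, 148 and 177 TPM in EpiSCs and 279.7 and 281 TPM in BV+SC+ cells (0.85 ± 0.12, adjusted p = 8.26e-04).

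Cox6b2 was at 88.4, 63.9 and 90.9 TPM in EpiSCs and at 201 and 180.0 TPM in BV+SC+ cells, with a log2 fold change of 1.23 ± 0.21 (adjusted p = 0.00190). Cox6b1 rose as well, and was at 628 to 657 TPM in EpiSCs and 1015 and 818 TPM (0.52 ± 0.13, adjusted p = 0.00902). Both isoforms were thus higher in BV+SC+ cells, with no overlap of the groups in CPM. Cox6c, a small membrane subunit, was at 429, 525 and 448 TPM in EpiSCs and at 1334 and 1218 TPM in BV+SC+ cells (1.42 ± 0.12, adjusted p = 5.80e-05). Cox4i1 rose as well, and was at 839.7 to 897 TPM in EpiSCs and 1552 and 1411 TPM (0.83 ± 0.10, adjusted p = 2.66e-04). Cox5a, Cox5b, Cox7a2l and Cox7c were also called higher, with log2 fold changes from 0.45 (Cox5a) to 0.55 (Cox7c), while Cox6a1 (0.18 ± 0.12) was not called. The call of Cox5a was lost without EpiSC replicate 2 (edgeR adjusted p = 0.0640) and without EpiSC replicate 3 (0.0547), that of Cox7a2l without EpiSC replicate 3 (0.0513), and that of Cox5b under 3 of 15 alternatives, EpiSC replicate 3 left out among them. Cox4i2 had 1 count over the 5 libraries.

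**Figure D4:**
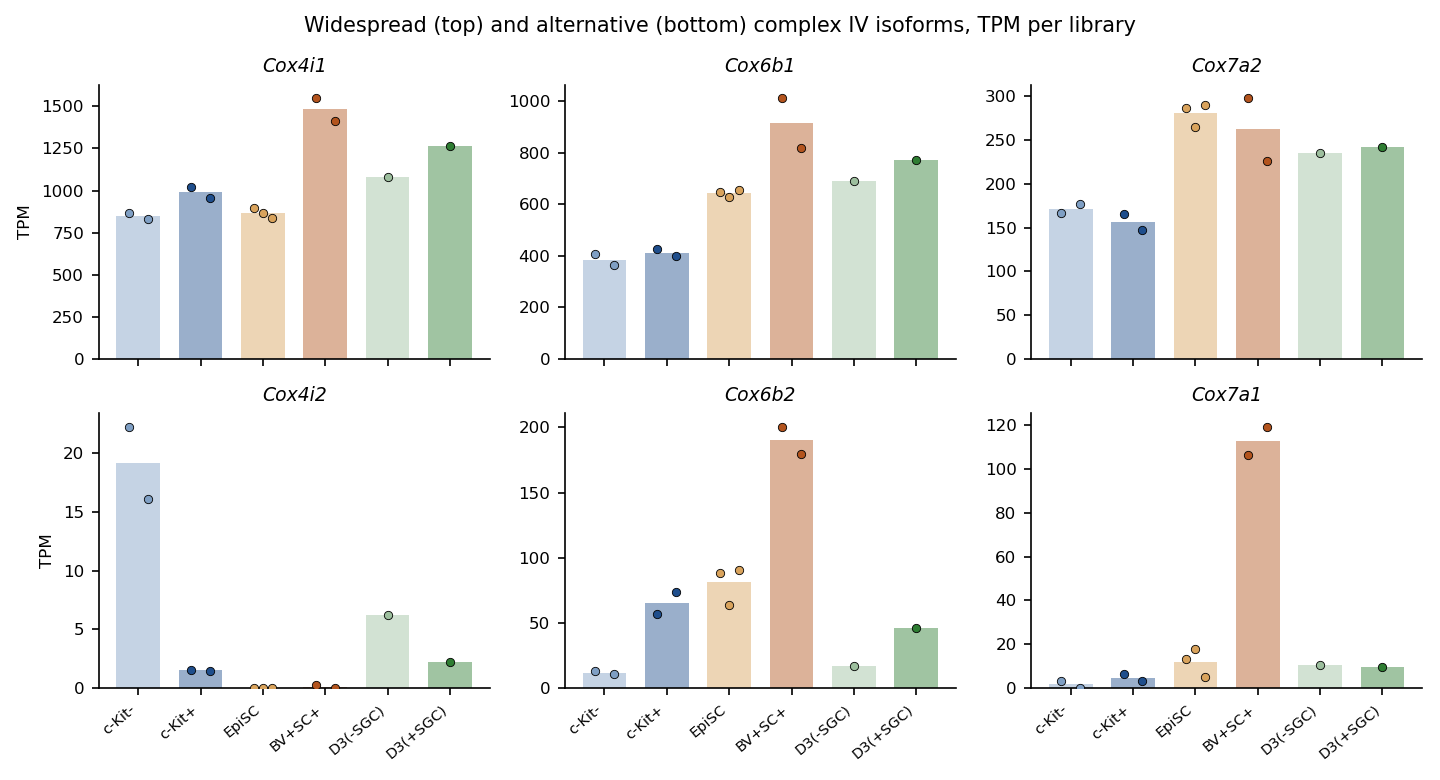
TPM (linear axes from 0) of common complex IV isoforms and their tissue-restricted counterparts in each library; points are libraries and bars are group means. Cox4i2 was highest in c-Kit- cells at 22.3 and 16.1 TPM, Cox6b2 in BV+SC+ cells at 201 and 180.0 TPM, and Cox7a1 in BV+SC+ cells at 106 and 119 TPM.

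Among the members tested, the next largest change was in complex III. Uqcrb, a small subunit that takes part in quinone binding, was at 316, 251 and 286 TPM in EpiSCs and at 1086 and 807 TPM in BV+SC+ cells, a log2 fold change of 1.75 ± 0.16 (adjusted p = 9.76e-05). Uqcrq, another small subunit, went the other way, from 562, 628 and 592 TPM in EpiSCs to 287 and 298 TPM in BV+SC+ cells (-0.64 ± 0.11, adjusted p = 0.00207), as did Uqcrfs1 (-0.39 ± 0.12, adjusted p = 0.0242), whose call was lost under 4 of 15 alternatives. The core proteins Uqcrc1 (-0.03 ± 0.10) and Uqcrc2 (0.01 ± 0.11) were not called. Subunits of complex III therefore moved in both directions.

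In complex I, the accessory subunit Ndufb9 was at 172, 178 and 207 TPM in EpiSCs and 509 and 386 TPM in BV+SC+ cells (1.31 ± 0.16, adjusted p = 3.53e-04), and the accessory subunit Ndufa6 at 167, 250.3 and 226 TPM against 525 and 436 TPM (1.19 ± 0.18, adjusted p = 0.00107). The core subunit Ndufs1 was called higher (0.39 ± 0.12, adjusted p = 0.0208, lost under 5 of 15 alternatives), while Ndufv1 (0.31 ± 0.12) was not called. Ndufs8, which holds a pair of iron-sulphur clusters, was the one complex I subunit called lower. It was at 116, 132 and 121 TPM in EpiSCs against 72.95 TPM in both BV+SC+ libraries (-0.69 ± 0.15, adjusted p = 0.00544), and with a GC offset it stood at -0.19 (adjusted p = 0.293). Ndufa4 had 0.17 ± 0.12 and was not called. Ndufa4l2, its hypoxia-inducible relative, had 1 count in EpiSCs and 30 in BV+SC+ cells, a ratio of 7.74 in CPM with an exact 95% counting interval from 1.29 to 316.

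Complex II subunits diverged. Sdha was called higher, at 199, 212 and 221 TPM in EpiSCs and 321 and 267 TPM in BV+SC+ cells (0.50 ± 0.10, adjusted p = 0.00416). Sdhd was called lower, at 287, 285 and 305 TPM against 185 and 169 TPM (-0.66 ± 0.11, adjusted p = 0.00157), and kept its call under all 15 alternatives. Sdhb had -0.29 ± 0.13 and Sdhc -0.29 ± 0.13, and neither was called.

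ATP synthase rose in part. Atp5b was at 2635, 2815 and 2539 TPM in EpiSCs and at 6983 and 7212 TPM in BV+SC+ cells, 2.67 times as high. On the count scale its log2 fold change was smaller, 0.50 ± 0.08 (adjusted p = 9.90e-04). TPM divides counts by an effective length, which RSEM gave for this gene as 1130, 1080 and 1215 bases in EpiSCs and 566 and 572 bases in BV+SC+ cells, and with these lengths as an offset the log2 fold change was 1.5. Atp5c1, the rotating shaft, rose by 0.56 ± 0.11 (adjusted p = 0.00273) on the log2 scale, Atp5a1, the alpha subunit of the head, had 0.06 ± 0.09 and was not called, and Atp5mpl, a small membrane subunit, had the largest value of the complex, 0.90 ± 0.22 (adjusted p = 0.00926). Of the c-ring genes, Atp5g1 was called higher (0.34 ± 0.12, adjusted p = 0.0406, lost under 6 of 15 alternatives) and Atp5g2 (0.17 ± 0.11) and Atp5g3 were not.

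The third comparison, of Day 3 cells with and without SGC0946, has 1 library each and so no test and no replicate check. The subunits were close in level: of 79 members with TPM over 1 in at least 1 library, 1 was past 2-fold higher and 1 past 2-fold lower on the scale of TPM + 1, beside 6.33% and 3.45% of 14038 genes. The median log2 ratio was 0.05 over the members and 0.01 over all genes.

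The members past 2-fold were again Cox6b2 and Cox4i2. Cox6b2 was at 17.2 TPM without and 45.98 TPM with SGC0946 (11 and 33 counts), a log2 ratio of 1.37 on TPM + 1, with an exact 95% counting interval from 0.40 to 2.56 on the log2 ratio of TPM. Cox4i2 was at 6.19 TPM without and 2.19 TPM with the inhibitor (8 and 3 counts), a log2 ratio of -1.17 with a counting interval from -4.05 to 0.56, which includes no difference. Intervals cover counting error only, since reads copied by PCR are not independent molecules. Ndufb4 (42.5 against 76.1 TPM, log2 ratio 0.82) and Uqcrq (255 against 396 TPM, 0.63) were the next highest, and Uqcrc2 (219 against 156 TPM, -0.48) the next lowest. Atp5b was at 2348 TPM without and 2824 TPM with SGC0946, and Sdhd at 189 and 226 TPM. Germ cell markers summed to 569 TPM without and 1229 TPM with SGC0946, and trophoblast markers to 3175 and 2522 TPM.

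Across the replicated comparisons, which share no library, 7 members were called in both. Cox6b2, Cox4i1, Cox7b, Cox7c and Sdha were higher in c-Kit+ and in BV+SC+ cells. They are 5 of the 9 members higher in c-Kit+ cells, beside 32 of 77 members (41.6%) and 29.6% of all genes higher in BV+SC+ cells. In the c-Kit comparison these 5 members, except Cox6b2, lost the call with DESeq2. There the call of Sdha was lost under 10 of 14 alternatives and that of Cox7b under 7 of 14. The share of all genes called in both is not given, and the overlap was not tested. Sdhd and Cox5a were called in opposite directions: Sdhd was higher in c-Kit+ and lower in BV+SC+ cells, and Cox5a lower in c-Kit+ and higher in BV+SC+ cells. Of these 4 calls, that of Sdhd in BV+SC+ cells was kept under every alternative tried and the others were each lost under some. A further 25 members were higher in BV+SC+ cells without a call in c-Kit+ cells, and whether the changes differ between the comparisons was not tested. In level, Cox6b2 ordered the groups from c-Kit- cells (13.04 and 10.6 TPM) and D3(-SGC) (17.2 TPM) through D3(+SGC) (45.98 TPM), c-Kit+ cells (56.7 and 74.01 TPM) and EpiSCs (63.9 to 90.9 TPM) to BV+SC+ cells (201 and 180.0 TPM), and the values of c-Kit+ cells and EpiSCs overlapped. The experiments were quantified over different gene sets, so levels set across them are a description.

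**Figure D5:**
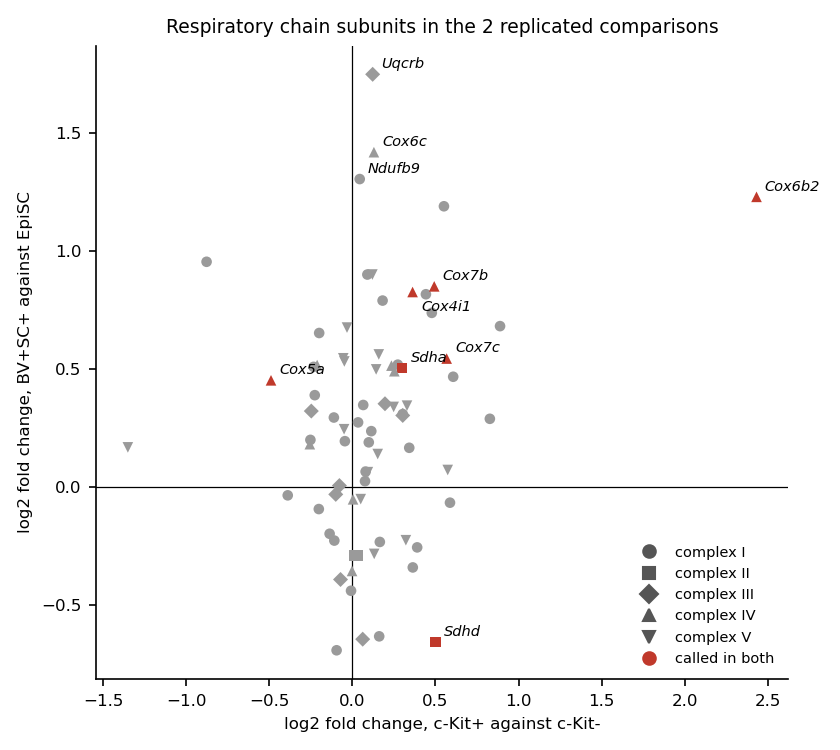
Log2 fold change of each member tested in both replicated comparisons, c-Kit+ against c-Kit- cells on the horizontal axis and BV+SC+ cells against EpiSCs on the vertical axis. Cox6b2, Cox4i1, Cox7b, Cox7c and Sdha are called higher in both, Cox5a lies at -0.49 and 0.45, and Sdhd at 0.50 and -0.66.

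Genes around the respiratory chain were counted for context, to be read against the 20.2% of all genes called higher and 21.3% called lower in c-Kit+ cells. In c-Kit+ cells, 69 of 78 cytosolic ribosomal protein genes tested were called higher and the other 9 were not called (median log2 fold change 0.52), while 8 of 77 mitochondrial ribosomal protein genes were higher and 4 lower (median 0.02). Of 18 genes of mitochondrial DNA expression and maintenance, 5 were higher and 1 lower (median 0.37), among them Mterf3 (1.21 ± 0.29, adjusted p = 0.00939) and Tfam, which packages and helps transcribe mitochondrial DNA (0.69 ± 0.19, adjusted p = 0.0174). The call of Mterf3 was lost with DESeq2 and without c-Kit+ replicate 1, and that of Tfam under 4 of 14 alternatives, c-Kit+ replicate 2 left out among them. The assembly factors of the complexes were split, 2 higher and 4 lower of 43 tested (median 0.09). Carriers and dehydrogenases that feed the chain from outside the name rule had 2 higher and 1 lower of 10 tested (median 0.30), among them Ndufab1 (1.21 ± 0.16, adjusted p = 2.95e-04), the mitochondrial acyl carrier protein that is also a complex I subunit. Of the 17 genes of pyruvate dehydrogenase and the citric acid cycle, 3 were higher and 4 lower (median 0.04), with Pdha1, of the enzyme that lets pyruvate into the cycle, at 2.30 ± 0.14 (adjusted p = 3.35e-06) and citrate synthase (Cs) at -0.64 ± 0.11 (adjusted p = 0.00127).

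In BV+SC+ cells, where 29.6% of all genes were called higher and 26.5% lower, 21 of 77 mitochondrial ribosomal protein genes (27.3%) were higher and 6 lower than in EpiSCs (median 0.19), as were 9 and 1 of 20 genes of mitochondrial DNA expression (median 0.38), 7 and 7 of 47 assembly factors (median 0.04), 4 and 2 of 10 carriers and linked dehydrogenases (median 0.20) and 6 and 3 of 17 genes of pyruvate dehydrogenase and the cycle (median 0.02). Etfb, of the electron transfer flavoprotein, stood at 1.47 ± 0.15 (adjusted p = 1.27e-04) and the mitochondrial glycerol phosphate dehydrogenase Gpd2 at -2.12 ± 0.13 (adjusted p = 1.32e-05). In the list of pyruvate dehydrogenase and the cycle, Pdhb stood at 0.89 ± 0.12 and Idh3a at -1.47 ± 0.13 (edgeR adjusted p = 6.27e-04 and 7.97e-05). Of the 9 tested genes known to be induced by hypoxia, with Cox4i2 itself in the list for the c-Kit comparison, 5 were lower and 1 higher in c-Kit+ cells (median -0.67) and 4 lower and 2 higher in BV+SC+ cells (median -0.35). The 1 gene of the list higher in c-Kit+ cells was Pdk1, which restrains pyruvate dehydrogenase (2.01 ± 0.20, edgeR adjusted p = 6.54e-05). In BV+SC+ cells Ldha, which makes lactate from pyruvate, was at -3.01 ± 0.23 (adjusted p = 3.95e-05), and Pdk1 at 1.48 ± 0.29 (adjusted p = 0.00335).

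Among 21 tested regulators of respiratory genes, 8 were higher and 2 lower in c-Kit+ cells (median 0.01), and 6 higher and 8 lower in BV+SC+ cells (median -0.11). Esrrb, an orphan nuclear receptor of naïve pluripotency, had the largest rise in both (3.34 ± 0.30 and 8.47 ± 0.17) and Myc the largest fall (-1.91 ± 0.22 and -4.62 ± 0.43). Nrf1, a known activator of respiratory genes, was at 0.01 ± 0.15 and -0.08 ± 0.14 and not called. Gabpa, another such activator, was called higher in both, at 0.66 ± 0.18 (adjusted p = 0.0151) and 0.53 ± 0.14 (adjusted p = 0.0127), calls lost under 5 of 14 and 3 of 15 alternatives.

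Such regulators act at promoters, so windows of 300 bases (250 before to 50 after the start, RefSeq, GRCm38.p6) were searched on both strands for a few motifs. Windows were found for 67 of 83 members. A gene with several windows was counted once, with a match in any of them. The 27025 genes with a window served as comparison and were not matched to the members in expression or GC content. The NRF1 core CGCANGCG was present for 37.3% of these members and 9.22% of the 27025 genes. The YY1 letters AAGATGGC were in 14.9% and 3.19%, the GABP/ETS letters CCGGAAGT in 7.46% and 4.31%, the CREB letters TGACGTCA in 5.97% and 2.03%, and the ERR letters TCAAGGTCA in 2.99% and 0.466%. None of these motifs contains another. The NRF1 core was in 10 of 26 windows of members called higher in BV+SC+ cells and in 15 of 39 windows of the other members tested, both 38.5%. The YY1, GABP/ETS, ERR and CREB letters were in 4, 1, 0 and 1 of the former and in 6, 4, 2 and 3 of the latter. Any of the 5 motifs was in 12 (46.2%) and 27 (69.2%), a difference that was not tested. A match is a description and not a bound site.

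The 150 bases before the start are shown for the complex II subunits called in opposite directions in BV+SC+ cells and for the tissue-restricted complex IV isoforms called higher there. Capitals mark NRF1 core matches on either strand. The stretches lie at chr13:74350241-74350390 (Sdha, minus strand), chr9:50603850-50603999 (Sdhd, minus strand), chr7:4753095-4753244 (Cox6b2, minus strand) and chr7:30184021-30184170 (Cox7a1, plus strand), all in GRCm38.p6.
Sdha: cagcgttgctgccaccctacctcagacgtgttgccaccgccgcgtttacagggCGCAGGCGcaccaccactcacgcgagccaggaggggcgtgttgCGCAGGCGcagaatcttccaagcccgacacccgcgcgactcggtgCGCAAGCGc
Sdhd: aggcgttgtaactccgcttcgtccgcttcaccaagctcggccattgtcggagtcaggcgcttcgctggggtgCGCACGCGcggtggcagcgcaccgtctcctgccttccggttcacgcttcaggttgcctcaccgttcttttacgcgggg
Cox6b2: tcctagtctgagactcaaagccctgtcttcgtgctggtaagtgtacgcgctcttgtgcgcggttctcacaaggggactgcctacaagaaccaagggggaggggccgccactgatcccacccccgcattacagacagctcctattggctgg
Cox7a1: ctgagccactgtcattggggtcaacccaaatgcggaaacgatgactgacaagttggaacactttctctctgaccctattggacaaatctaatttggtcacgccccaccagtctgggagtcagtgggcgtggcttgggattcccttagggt
Sdha held 3 NRF1 core matches and Sdhd 1 in these bases. The window of Sdhd also held an ERR match at position 36 after the start, beyond the bases shown. The windows of Cox6b2 and Cox7a1 held none of the 5 motifs. CG dinucleotides numbered 19 in the stretch of Sdha, 19 in that of Sdhd, 7 in that of Cox6b2 and 4 in that of Cox7a1.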

How the data were processed

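The authors aligned and quantified the reads with RSEM (version 1.3.1 in the processing notes of the submitters for the EpiSC, BV+SC+ and SGC0946 libraries; the notes also name Bowtie2 and mm10) and deposited 1 table per library with expected counts and TPM per gene. The methods of the study name an mRNA kit, whereas the labels name a ribosome-depleted total RNA kit for the EpiSC, BV+SC+ and SGC0946 libraries. Expected counts as deposited were rounded to whole numbers and tested with edgeR 4.0.16 (R 4.3.3): filterByExpr, TMM scaling, glmQLFit and glmQLFTest, each comparison on its own libraries, with Benjamini-Hochberg adjustment over all genes tested and a threshold of 0.05. Deposited TPM was used for levels and, with a pseudocount of 1, for the log2 ratio of the SGC0946 pair. Errors of log2 fold changes (SE) were derived from the edgeR quasi-likelihood F statistic, as the absolute log2 fold change over the square root of F.

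The symbols and biotypes came from GENCODE M21, not the release named in the methods. Members and lists were chosen with earlier results of these data known. Named by rule were core subunits, isoforms, per complex the largest rise and fall (mean TPM of at least 5), calls past 2-fold, calls in opposite directions and the mitochondrial-encoded genes. The rule also covered the largest rise and fall of each list, but only some of these are named in the text. Ndufa7, Ndufa12, Uqcrc2, Cox5b, Cox7c, Atp5d, Tfam, Gabpa, Nrf1 and Kit were named after their values were seen. Copies of members were found with BLAST+ 2.17.0 (at least 98% identity over 75 bases). Low counts were given as ratios with exact intervals at 95%, or against a floor of 3 counts. The fits were tested on simulated data with known changes. Alternatives were DESeq2 1.42.0, other scalings, filters and gene sets, an offset for GC content, another for effective length, added copies, a replicate block and leaving out each library. Replicate numbers were not taken as pairs in the main fits, since no shared culture is stated. Deviations of same-numbered libraries correlated at 0.114 in the c-Kit comparison and at -0.03 and 0.00 between BV+SC+ cells and EpiSCs. These values do not decide whether the libraries are pairs. The values of 1 member are not reported here. Time-course, ATAC-seq and ChIP-seq samples of the series were not used here.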

Additional observations from a re-analysis of the deposited data

How the results depend on the processing

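Depth limits the low isoforms most. For c-Kit+ against c-Kit- cells, the 9 higher calls were 2 with DESeq2 and 5 with an offset for effective length. They were 1 with an unadjusted edgeR p under 0.05 and a fold over 2. The 2 lower calls were 0 with DESeq2 (2 at an unadjusted p under 0.05, 3 in edgeR). Both numbers changed with 1 library left out, which leaves 1 library in a group. The median of 0.09 was 0.052 without scaling factors and -0.0036 to 0.16 with 1 library left out. The 9 mitochondrial-encoded genes called higher were 12 with the replicate block and 0 with a GC offset, also at an unadjusted edgeR p under 0.05. Their median was 0.39 to 0.92 with 1 library left out. For BV+SC+ cells against EpiSCs, the 32 higher calls were 6 with the fold limit and 22 to 40 with 1 library left out, and the 4 lower calls were 7 with the length offset, 0 with the fold limit in edgeR (8 at an unadjusted p under 0.05 at any fold) and 3 to 10 with 1 library left out. The median of 0.30 was 0.35 without a filter on low counts (0.29 over all genes), 0.40 with a GC offset (0.13 over all genes) and 0.23 to 0.34 with 1 library left out. For the SGC0946 pair, the 1 member past 2-fold lower became 0 on CPM, and the median of 0.05 became 0.084 on CPM and 0.021 on TPM rescaled by TMM factors. With the replicate block in edgeR the BV+SC+ comparison had 21 higher calls and 3 lower, without Cox5a (adjusted p = 0.0639) and Cox7a2l (0.0859), and the c-Kit comparison kept 9 and 2. Of all genes, the block called 22.7% higher and 22.2% lower in the former and 22.2% and 22.0% in the latter. The all-gene shares in the c-Kit comparison were 11.5% higher and 13.5% lower with DESeq2 and 15.9% and 17.4% with the length offset. In the BV+SC+ comparison the length offset gave 28.1% and 24.5%. The replicate numbers share no stated culture or day, and deviations of same-numbered libraries correlated at 0.114 in the c-Kit comparison and at -0.03 and 0.00 in the other.

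With a call under at least 1 of the settings compared, single genes turned direction in 13 cases. With a GC offset, Cox8a stood at 0.36 in c-Kit+ cells, Uqcrc1 at 0.27 and Atp5d at 0.51 in BV+SC+ cells, mt-Nd1 at -0.19, mt-Nd2 at -0.088, mt-Co1 at -0.030, mt-Atp8 at -0.49, mt-Atp6 at -0.25, mt-Nd4 at -0.22, mt-Nd5 at -0.056, mt-Nd6 at -0.14 and mt-Cytb at -0.25. With copies added, Atp5g2 stood at 0.37 in c-Kit+ cells. A further 69 values turned sign without a call under either setting, 61 of them by 0.3 or less. The other 8 were, in c-Kit+ cells, mt-Nd3 (-0.22), Uqcrb (-0.43), Cox6a1 (0.13) and Ndufa4 (-0.014) with a GC offset, mt-Co2 (-0.39) without c-Kit+ replicate 2 and Atp5g1 (-0.053) without c-Kit- replicate 2, and in BV+SC+ cells Cox8a (0.30) with a GC offset and Nrf1 (0.24) with the length offset. Of the remaining values of single genes, 1494 kept sign and side of the threshold, 92 lost a call, 58 gained one and 1 fell below 2-fold (Cox4i2 in the SGC0946 pair on CPM, -0.75). The causes of these changes were not tested.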
